A study of Zea mays with 54 samples.

Results

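Response regulators, histidine kinases and the gibberellin synthesis gene an1 of maize were compared between the outer layer and the interior of the vegetative shoot apical meristem (SAM). The genes were chosen by name. They were RR4, RR5, RR6, hk3 and an1, plus any other gene whose symbol or RefSeq synonym is RR or hk followed by digits. The rule found 10 of the 866 genes that the annotation names, with 26 of the 49280 probes listed on 3 array designs, and 23 of these probes, covering all 10 genes, had values. They comprised 6 response regulators (14 probes listed), 3 histidine kinases (8 probes) and an1 (4 probes). Probes 3914 and 17954 of an1 on slides 1 to 6 and probe 13672 of RR5 on slides 7 to 12 had no value on any slide.

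Tissue came from 14-day-old seedlings of the inbred line B73, with no mutant allele and no treatment in either layer. The L1, the tunica of a single cell layer that forms the epidermis, was set against the L2, here the corpus beneath it that forms the inner tissues. For each replicate 5 to 10 apices were pooled, the layers were cut out by laser microdissection, and about 1 ng of RNA per layer was amplified. The amplified L1 and L2 RNA carried the dyes Cy3 and Cy5 and competed on 18 slides of spotted cDNA, 6 of each array design (slides 1 to 6, 7 to 12 and 13 to 18), with the dyes exchanged between odd and even slides. The labels call each pool a biological replicate but do not say whether the plants were grown apart, so the p-values measure the spread between slides. Slides 1 and 2 share an L2 extract number, as do slides 5 and 6, and most extract numbers recur on the other designs.

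Cytokinin signalling is a phosphorelay. Membrane histidine kinases bind the hormone, phosphotransfer proteins carry the phosphate to the nucleus, and response regulators receive it. Type-B regulators bind DNA and activate target genes, among them the type-A regulators, which are induced by cytokinin and damp the pathway. In the shoot apex cytokinin sustains cell division and meristem size, and KNOTTED1-type homeodomain proteins are known to raise cytokinin and lower gibberellin. an1 (anther ear1) encodes ent-copalyl diphosphate synthase, which acts early in gibberellin synthesis, and maize an1 mutants are semidwarf.

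Each value is a log ratio within a slide, given as L1 minus L2, so a negative value means less signal in L1. The sources used here do not name the base of the logarithm, and folds are given for base 2 and for the natural logarithm. That L1 is on top after turning is a likely reading that no label states, taken from epidermal marker genes and kn1, which are therefore no independent evidence. A ratio gives no level in either layer, so genes could not be ordered by abundance. Less RNA per cell and fewer cells containing the transcript cannot be told apart in pooled layers.

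RR6, an1 and hk3 on slides 1 to 6 and RR5 on slides 13 to 18 were lower in L1. These were 4 of the 23 probes with values, called by limma at an adjusted p under 0.05 over all probes of the design. No probe of these genes was called higher in L1. On slides 1 to 6, 3 of the 8 probes were called, all lower in L1, where 2.84% of the 14401 probes were called in either direction, 1.34% lower and 1.5% higher in L1. None of the 4 probes on slides 7 to 12 was called, where 1.43% of 8991 probes were called, 0.545% lower and 0.89% higher; at an unadjusted p under 0.05 limma passed 1245 probes there, none of them of these genes. On slides 13 to 18, 1 of 11 was called, lower in L1, where 1.57% of 14270 probes were called, 0.554% lower and 1.02% higher. The median difference of the probes of these genes was -0.32, -0.16 and 0.0014 on the 3 designs, beside -0.0017, -0.016 and 0.00025 over all probes.

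**Figure D1:**
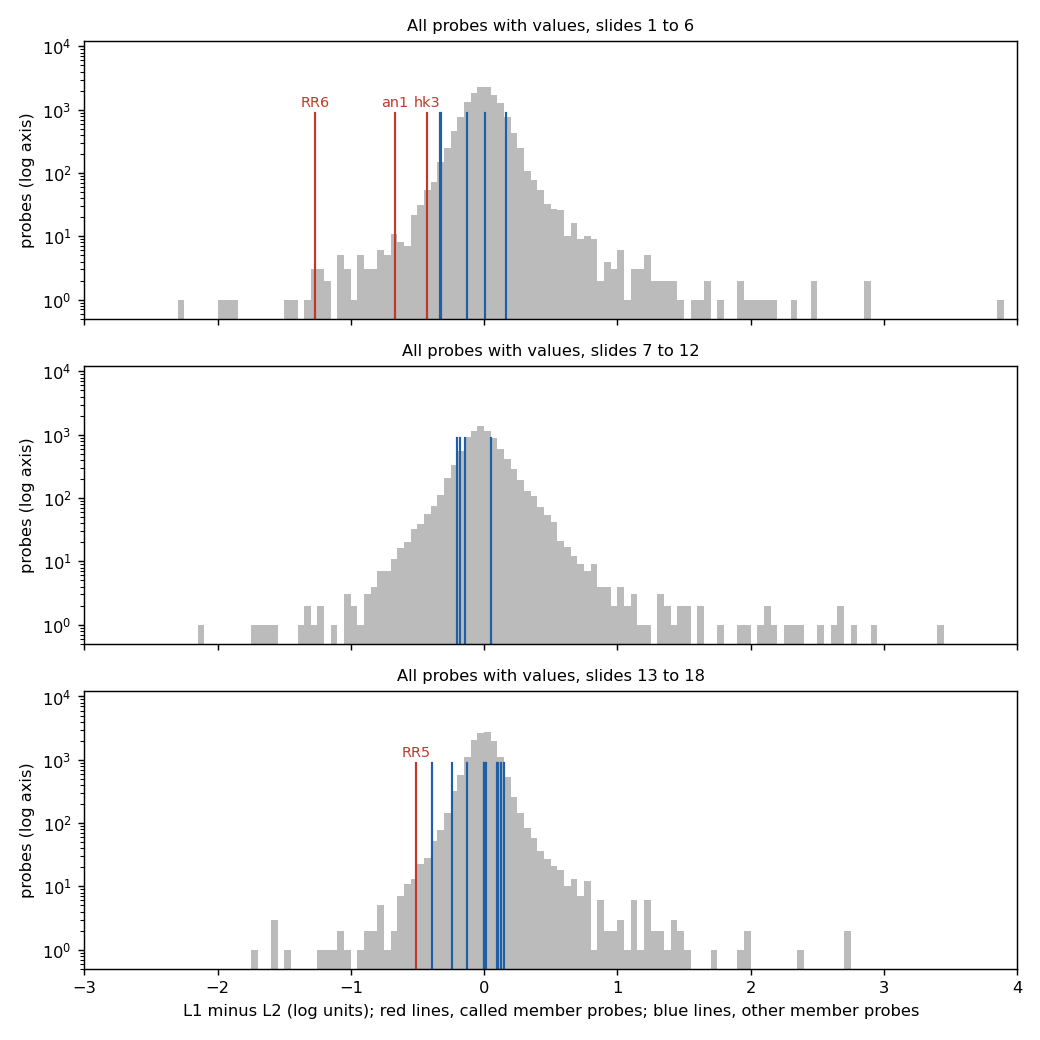
Number of probes (log axis) by L1 minus L2 difference (log units, bins of 0.05) on each array design, with the 23 probes of the cytokinin genes and an1 as vertical lines, red where called and blue where not. RR6, at -1.27, stands in the thin lower tail of slides 1 to 6, where 0.0556% of probes lay lower. For the 4 probes on slides 7 to 12, 10.2% (hk3), 12.6% (HK1), 18.2% (RR4) and 67.5% (hk2) of probes lay lower.

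The histidine kinases are the cytokinin receptors, and they were hk3, HK1 and hk2. hk3 (LOC541642) on probe 18043 had values of -0.81, -0.29, -0.46, -0.022, -0.56 and -0.42 on slides 1 to 6 in turn. All 6 slides were below 0, with slide 4 close to no difference. The mean was -0.43 ± 0.083 (SE, n = 6; 95% interval -0.61 to -0.24; adjusted p = 0.0225 by limma), a fold of 1.34 (base 2) or 1.53 (natural) lower in L1. The call ended when any 1 of slides 1, 2, 3, 5 and 6 was left out (adjusted p up to 0.11), and in the H reading alone (-0.28, adjusted p = 0.249). It also ended without the dye term (adjusted p = 0.0819) and without slides 1 and 5 (-0.35, adjusted p = 0.554). Slides with L1 in Cy5 averaged -0.24 and those with L1 in Cy3 averaged -0.61, and the dye term did not pass (adjusted p = 0.204 by limma).

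hk3 was measured by another probe, 2715, on slides 7 to 12, where the values were -0.49, 0.081, -0.04, -0.80, 0.00056 and 0.043. Only slides 7 and 10 were clearly below 0 and the other 4 lay close to it. The mean was -0.20 ± 0.14 (SE; 95% interval -0.53 to 0.12; adjusted p = 0.564 by limma), an interval that includes the value on slides 1 to 6. The gene's slide values on the 2 designs differed by 0.22 (slides 7 to 12 minus slides 1 to 6, exact permutation p = 0.24, adjusted p = 0.541 over 9 pairs of designs). Here and for the other pairs of designs, this test treats the slides as unrelated, although 5 L1 extract numbers are on both designs.

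HK1 (LOC541634) was lower in L1 on all 6 of slides 7 to 12, at -0.023, -0.020, -0.15, -0.25, -0.38 and -0.25, but the mean of -0.18 ± 0.076 (SE) did not pass (95% interval -0.36 to 0.0020; adjusted p = 0.365 by limma). Values below 0 throughout were found for 5.47% of all probes on that design. A probe of the same sequence record lay on slides 13 to 18, where 5 slides were between -0.36 and -0.045 and slide 18 was at 0.21. There the mean was -0.13 ± 0.073 (SE; adjusted p = 0.507 by limma).

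The extract numbers allow the 2 HK1 probes to be set side by side. L1 extract 1 gave -0.045 on slides 13 to 18, beside -0.023 on slides 7 to 12. In the same order extract 2 gave -0.066 and -0.020, and extract 3 gave -0.36 and -0.15. Extract 4 gave -0.20 and -0.25. Extract 5 gave -0.33 with L1 in Cy3, beside -0.25 with L1 in Cy5. Both designs thus had extracts 1 and 2 nearest to 0 among these 5, while extract 8, on slides 13 to 18 only, was at 0.21 and extract 7, on slides 7 to 12 only, at -0.38.

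hk2 (LOC541641) was measured by 4 probes, none of which was called or had an unadjusted p under 0.05 in limma. Its means were 0.049 ± 0.10 (slides 7 to 12, probe 8155) and 0.098 ± 0.057, 0.0014 ± 0.059 and 0.11 ± 0.14 (slides 13 to 18, probes 4239, 7863 and 9128; SE, n = 6 each; adjusted p between 0.525 and 0.996 by limma). Probe 4239 was above 0 on 6 of 6 slides, from 0.0048 to 0.32 with a median of 0.057; 4.49% of all probes on the design were above 0 throughout. Probe 9128 spread from -0.31 to 0.64 and its interval of -0.21 to 0.42 was among the widest. For probes 4239 and 7863 the 95% intervals, -0.035 to 0.23 and -0.14 to 0.14, were narrow.

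Among the type-A regulators RR6 (LOC541632, probe 3103) had the most negative difference of all 23 probes. Slides 1 to 6 gave -1.69, -0.995, -1.50, -0.89, -1.06 and -1.49. All 18 readings, 3 on each of the 6 slides, were below 0. The mean was -1.27 ± 0.11 (SE, n = 6; 95% interval -1.51 to -1.03; adjusted p = 0.00012 by limma), a fold of 2.41 (base 2) or 3.56 (natural) lower in L1. From the lowest, the probe ranked 9 of 14401. Slides with L1 in Cy5 averaged -1.12 and those with L1 in Cy3 averaged -1.42, and the dye term did not pass (adjusted p = 0.407 by limma). The call held in every alternative run for this probe except the fit without eBayes moderation (adjusted p = 0.0925), which used the same mean.

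**Figure D2:**
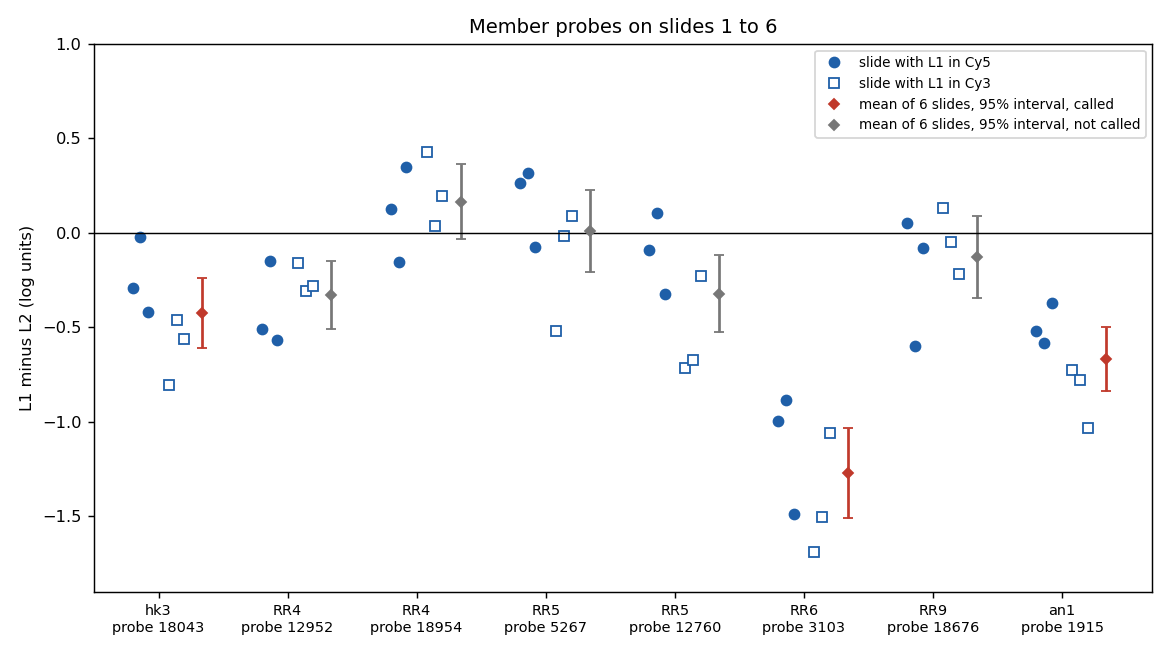
L1 minus L2 (log units) for each of the 8 probes of these genes on slides 1 to 6. Filled circles are slides with L1 in Cy5, open squares slides with L1 in Cy3, and diamonds the mean with its 95% interval, red where called; all 6 RR6 values lie at or below -0.89, under every value of the RR4, RR5, RR9 and hk3 probes.

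RR5 is named by the array annotation alone, without an entry in the RefSeq table used for the other genes. On slides 13 to 18 its probe 1098 gave -0.71, -0.47, -0.20, -0.48, -0.50 and -0.69. The 6 slides were all below 0, slides 13 and 18 lowest. The mean was -0.51 ± 0.076 (SE, n = 6; 95% interval -0.69 to -0.33; adjusted p = 0.0259 by limma), a fold of 1.42 (base 2) or 1.66 (natural) lower in L1. The call ended when any slide but 15 was left out (adjusted p up to 0.103) and in the L reading alone (-0.44, adjusted p = 0.113).

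A further RR5 probe on the same slides, 12404, gave -0.63, -0.39, -0.46, -0.41, 0.073 and -0.53. Slide 17 was the only slide above 0. With it the mean was -0.39 ± 0.092 (SE; adjusted p = 0.114 by limma), and without it -0.49 (adjusted p = 0.0307). With both probes averaged into 1 value per slide before the fit, RR5 was at -0.45 (adjusted p = 0.0316 by limma).

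On slides 1 to 6 the RR5 probes disagreed. Probe 12760, of the same sequence record as probe 12404, gave -0.72, -0.089, -0.68, 0.11, -0.23 and -0.32, a mean of -0.32 ± 0.092 (SE; 95% interval -0.53 to -0.12; adjusted p = 0.12 by limma). Probe 5267 gave -0.52, 0.27, -0.015, 0.32, 0.088 and -0.077, with 3 slides on each side of 0 and a mean of 0.0099 ± 0.098 (SE; adjusted p = 0.978 by limma). Both probes were lowest on slide 1 and highest on slide 4. Spotted cDNA can also bind transcripts of close relatives, and how far these probes separate RR5 from the other type-A regulators is uncertain.

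For the sequence record on both designs, L1 extract 1 gave -0.63 on slides 13 to 18, beside -0.72 on slides 1 to 6. Extract 3 gave -0.46, beside -0.68. The other shared extracts differed more. Extract 2 gave -0.39, beside -0.089, extract 4 gave -0.41, beside 0.11, and extract 5 gave 0.073, beside -0.23. Extracts 1 and 5 were matched in L1 alone. Slides 1 and 5 held L2 extracts 2 and 6, and slides 13 and 17 L2 extracts 1 and 5. The gene's slide values, with probes averaged, differed by -0.29 between the designs (slides 13 to 18 minus slides 1 to 6; exact permutation p = 0.0693, adjusted p = 0.208 over 9 pairs).

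**Figure D3:**
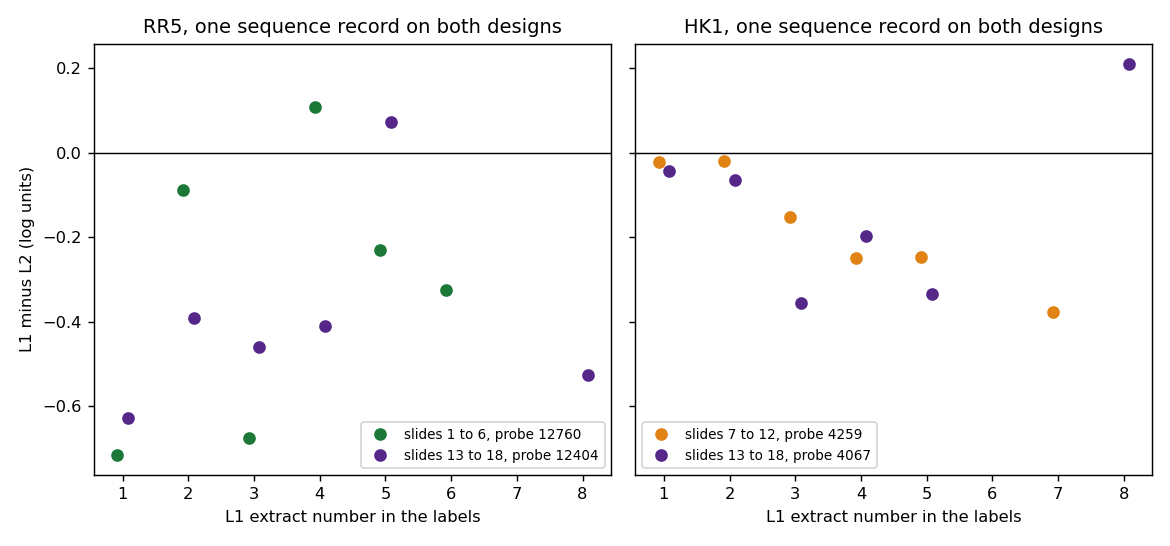
L1 minus L2 (log units) against the L1 extract number for RR5 and HK1, each measured by a probe of the same sequence record on 2 array designs. Points of 1 L1 extract number lie within 0.203 of each other for HK1, while for RR5 they differ by up to 0.516, at extract 4. For RR5, extracts 1 and 5 were set against other L2 extract numbers on the 2 designs.

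RR4 (LOC541630) had 4 probes and none was called by limma. Only probe 12952 had an unadjusted p under 0.05 by limma, as had 2133 of the 14401 probes on slides 1 to 6. Probe 12952 on slides 1 to 6 gave -0.16, -0.51, -0.31, -0.15, -0.28 and -0.57, all below 0, where 4.18% of all probes were below 0 on all 6 slides. Its mean of -0.33 ± 0.080 (SE; 95% interval -0.51 to -0.15) had an adjusted p of 0.0666 by limma, and passed without slide 4 (-0.39, adjusted p = 0.0405). Probe 18954 on the same slides ran the other way, at 0.43, 0.13, 0.038, -0.15, 0.20 and 0.35, with a mean of 0.16 ± 0.089 (SE; adjusted p = 0.435 by limma). Averaged per slide, they gave -0.08 (adjusted p = 0.658).

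On the other designs RR4 lay near 0. Probe 510 gave -0.14 ± 0.078 on slides 7 to 12, with 4 of 6 slides below 0 (SE; adjusted p = 0.476 by limma). Probe 5515 gave 0.013 ± 0.16 on slides 13 to 18 (SE; adjusted p = 0.983 by limma). Slides 13 and 18 were both at -0.52 for that probe and the other 4 lay between 0.015 and 0.46, so its interval of -0.35 to 0.38 leaves room for a difference as large as that of probe 12952.

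The type-B regulators RR8, RR9 and RR10 activate transcription, and none of their 4 probes was called by limma. RR8 and RR9 probe 5047 had an unadjusted p under 0.05 by limma, as had 1834 of the 14270 probes on slides 13 to 18. RR8 (LOC541636, probe 2663) was above 0 on all of slides 13 to 18, as were 4.49% of all probes there. Its slides ran from 0.033 to 0.20 with a median of 0.12. Its mean of 0.13 ± 0.047 (SE, 95% interval 0.016 to 0.24, adjusted p = 0.314 by limma) had the smallest SE of the 23 probes. RR9 (LOC541638) averaged 0.15 ± 0.060 on slides 13 to 18 (probe 5047; adjusted p = 0.356) and -0.13 ± 0.097 on slides 1 to 6 (probe 18676; adjusted p = 0.598 by limma; SE, n = 6 each). RR10 (LOC541639, probe 3383) averaged -0.0020 ± 0.055 (SE; 95% interval -0.13 to 0.13; adjusted p = 0.993 by limma).

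For RR9 the designs gave opposite signs. Slides 13 to 18 ran from -0.052 to 0.39 with a median of 0.096, and slides 1 to 6 from -0.60 to 0.13 with a median of -0.064, so the ranges overlapped. The difference of 0.28 (slides 13 to 18 minus slides 1 to 6) had an exact permutation p of 0.0455 and an adjusted p of 0.205 over 9 pairs. That test treats the slides of both designs as unrelated. By L1 extract number, RR9 was higher on slides 13 to 18 in 4 of 5 shared extracts. The later probe's readings disagreed within a slide, by up to 1.35 on slide 14, and its L, M and H means were 0.36, 0.026 and 0.071.

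**Figure D4:**
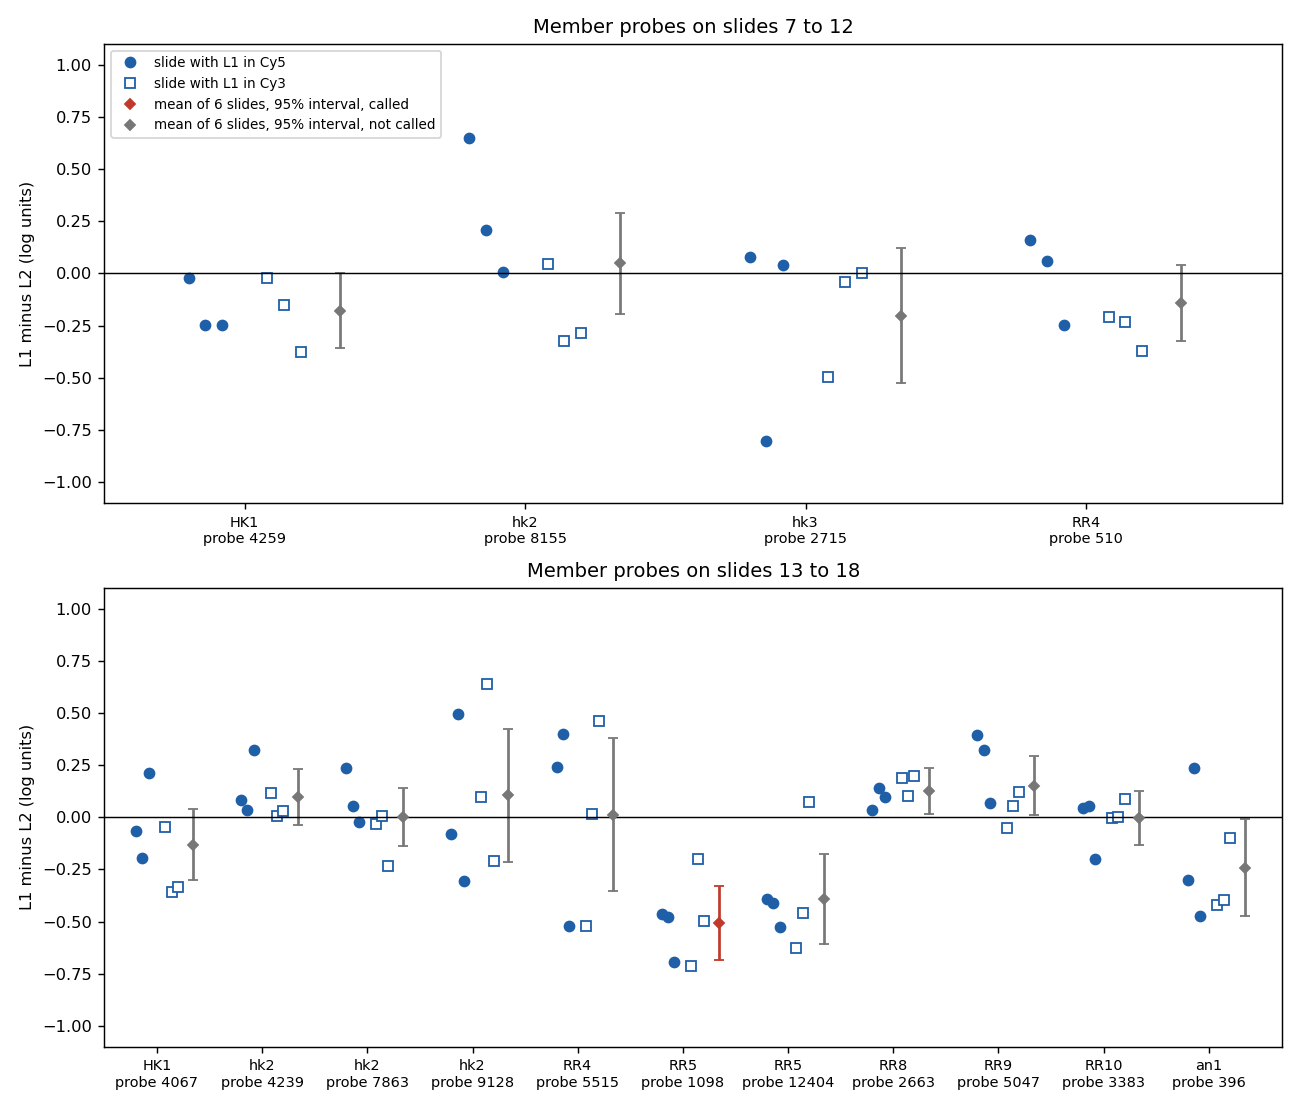
L1 minus L2 (log units) for the 4 probes of these genes on slides 7 to 12 and the 11 on slides 13 to 18, drawn with circles for L1 in Cy5, squares for L1 in Cy3 and diamonds for the mean with its 95% interval. Probe 1098 of RR5, in red, is the only called one; RR8 keeps all 6 slides between 0.033 and 0.20, while RR4 probe 5515 spreads from -0.52 to 0.46.

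an1, the ent-copalyl diphosphate synthase gene, had values of -0.73, -0.52, -0.78, -0.59, -1.03 and -0.37 on slides 1 to 6 (probe 1915). All 6 slides and all 18 readings were below 0. The mean was -0.67 ± 0.076 (SE, n = 6; 95% interval -0.84 to -0.50; adjusted p = 0.0009 by limma), a fold of 1.59 (base 2) or 1.95 (natural) lower in L1. The probe ranked 54 of 14401 from the lowest. Its slides averaged -0.49 with L1 in Cy5 and -0.85 with L1 in Cy3, and the dye term did not pass (adjusted p = 0.184 by limma). Leaving out any 1 slide kept the call (adjusted p between 0.00165 and 0.00823), while leaving out slides 1 and 5 together did not (-0.64, adjusted p = 0.0766), with 4 slides in the fit.

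Probe 396 of an1 on slides 13 to 18 gave -0.42, -0.30, -0.40, 0.24, -0.10 and -0.47. Slide 16 was above 0 and the other 5 below. The mean was -0.24 ± 0.099 (SE; 95% interval -0.48 to -0.010; adjusted p = 0.365 by limma). The designs differed by 0.43 (slides 13 to 18 minus slides 1 to 6), with an exact permutation p of 0.0108 and an adjusted p of 0.0974 over 9 pairs, the lowest of that family, none of which passed. That test treats the slides of both designs as unrelated, although L1 extract numbers 1 to 5 are on both. By L1 extract number in turn, an1 was higher on slides 13 to 18 than on slides 1 to 6 by 0.31, 0.22, 0.38, 0.82 and 0.93, in 5 of 5 shared extracts. For extracts 1 and 5 the match is in L1 alone. Slides 1 and 5 held L2 extracts 2 and 6, and slides 13 and 17 L2 extracts 1 and 5. Of the other pairs of designs, none differed in 1 direction in all 5 shared extracts.

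**Figure D5:**
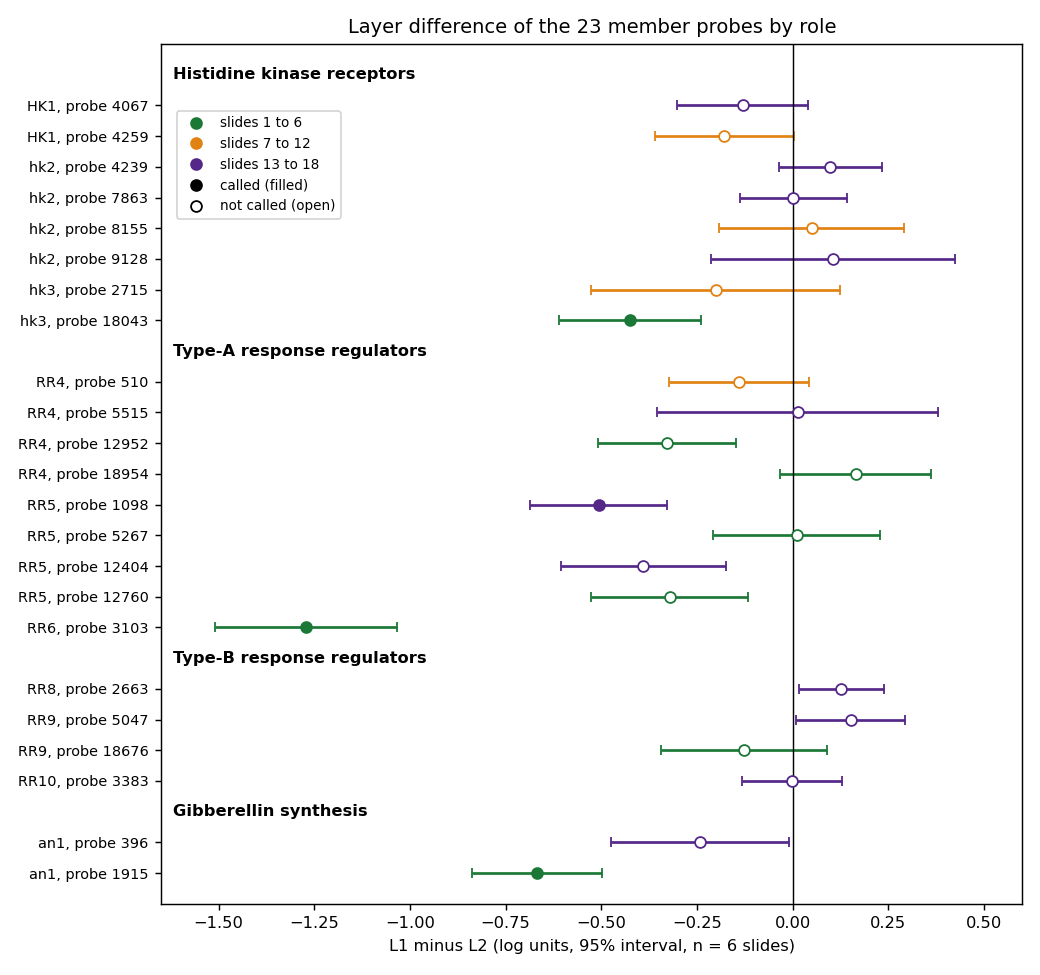
Mean L1 minus L2 difference with 95% interval (log units, n = 6 slides) for the 23 probes, grouped by role, coloured by array design and filled where called. The called probes are those of hk3, RR5, RR6 and an1, from -0.43 to -1.27; the type-B regulators lie between -0.13 and 0.15.

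By role, 1 of 8 receptor probes, 2 of 9 type-A probes, 0 of 4 type-B probes and 1 of 2 an1 probes were called, with median differences of -0.065, -0.32, 0.062 and -0.46. Over all probes 2.84%, 1.43% and 1.57% were called on the 3 designs. At such shares any 4 probes would seldom hold a call, so 0 of 4 does not set the type-B regulators apart. Of the 23 intervals, 15 lay within 0.5 log units of 0 on either side. For these 15 probes a difference of that size would lie outside the interval, whereas a smaller one may remain undetected with 6 slides. All intervals of HK1, hk2, RR8, RR9 and RR10 were among them, while RR4, RR5 and an1 each had a probe whose interval passed 0.5, and RR6 and hk3 had no probe inside.

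Genes on the same slides were compared directly, with probes of a gene averaged, in 49 pairs by exact sign-flip permutation over 6 slides. The smallest p this test can give is 0.03125, reached by 14 pairs, and no pair passed after adjustment (lowest adjusted p = 0.109). On slides 1 to 6 RR6 was lower than each of the other 5 genes on 6 of 6 slides, by -0.60 relative to an1, -0.84 to hk3, -1.11 to RR5, -1.14 to RR9 and -1.19 to RR4. The order of the means there was RR6, an1, hk3, RR5, RR9 and RR4. hk3 was also lower than RR5 on 6 of 6 slides (-0.27), as was an1 relative to RR5 (-0.51) and RR4 (-0.59). RR5 and RR4 are here each the mean of 2 probes that disagreed, and their places in this order rest on that averaging. Taken alone, RR5 probe 12760 (-0.68) was below hk3 (-0.46) on slide 3, and RR4 probe 12952 (-0.57) was below an1 (-0.37) on slide 6. an1 and hk3 differed by -0.24 ± 0.26 (SD, n = 6; exact p = 0.125), RR5 and RR9 by -0.028 ± 0.52 (exact p = 0.875), and RR9 and RR4 by -0.045 ± 0.24 (exact p = 0.719), none beyond its spread.

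On slides 13 to 18 the type-A regulator RR5 was lower than each type-B regulator on 6 of 6 slides, by -0.45 relative to RR10, -0.58 to RR8 and -0.60 to RR9. It was likewise lower than hk2 (-0.52) and RR4 (-0.46) on every slide, and an1 was lower than RR9 (-0.39). Each of these 6 pairs had the smallest possible exact p of 0.03125 and an adjusted p of 0.109. RR5 and hk2 are means over probes here, and on slide 17 RR5 probe 12404 alone (0.073) was above the hk2 mean (-0.14). RR5 and an1 differed by -0.21 ± 0.25 (SD, n = 6; exact p = 0.0625). On slides 7 to 12 no pair of HK1, RR4, hk2 and hk3 differed in 1 direction on all 6 slides, and the lowest adjusted p was 0.209.

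The slide-to-slide changes of some genes ran together on slides 1 to 6. RR6, hk3 and both RR5 probes were all lowest on slide 1 and highest on slide 4. RR9 probe 18676 and RR4 probe 18954 had the opposite extremes, lowest on slide 4 and highest on slide 1. The difference between RR6 and RR5 varied with an SD of 0.10 over the slides, less than the SD of 0.33 for RR6 or 0.30 for RR5. These genes share the slide, its dyes and its RNA extracts, and the part of any of these in the pattern was not tested.

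Other genes of the pathway came from a list of cytokinin metabolism and phosphotransfer genes and kn1. Its 4, 4 and 5 probes with values on the 3 designs gave 3, 1 and 1 calls, all lower in L1 and all of kn1. The list medians were -0.55, -0.33 and -0.14, and they rest in part on kn1, which had several probes on each design. kn1, the knotted1 homeobox gene of the meristem, had 3 probes on slides 1 to 6, with differences of -1.26, -0.72 and -0.37. Its differences were -1.72 and -0.27 on slides 7 to 12. The last design held probes at -1.56, -0.26 and 0.022. Its probes thus disagreed in size by more than those of RR5, and since kn1 helped to set the direction it is given as a description.

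The phosphotransfer protein genes, which link receptors to regulators, were not called. hp2 averaged -0.11 ± 0.086 on slides 1 to 6 and, by a further probe, -0.14 ± 0.072 on slides 13 to 18, where HP1 averaged -0.053 ± 0.072 (SE, n = 6 each; adjusted p = 0.596, 0.457 and 0.811 by limma). Of the cytokinin oxidases, which degrade the hormone, cko3 was at -0.39 ± 0.12 on slides 7 to 12 (SE, adjusted p = 0.227 by limma). It was below 0 on 6 of 6 slides, as were 5.47% of all probes there. On the same slides cko2 was at -0.011 ± 0.11 (SE, adjusted p = 0.971 by limma). Of the other gibberellin genes on the list fixed for an1, none was named on any design.

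The genes whose 6 slide values were closest to those of each called probe were found by the root mean square difference. For RR6 they were rf2c (0.38) and AGP2 (0.39), where the median over 1685 named probes was 1.33. For an1 they were 2 other probes of AGP2 (0.13 and 0.21; median 0.74), and for hk3 they were prf1, a profilin (0.16), and tip1, a tonoplast aquaporin (0.17; median 0.55). For RR5 on slides 13 to 18 they were GLN6, a glutamine synthetase (0.26), and TMT (0.28; median 0.57 over 1084 probes). AGP2 was at -1.15 on the probe nearest to RR6 and at -0.77 and -0.80 on those nearest to an1, each called lower in L1. The neighbours of RR6 were close to it in mean, with r over the 6 slides of 0.29 for rf2c and -0.091 for AGP2. For the neighbours of an1, hk3 and RR5 this r was 0.73 to 0.91.

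The uncalled genes had neighbours at 0.043 to 0.21. On slides 1 to 6 these were GAPC and GAPC2 for RR4, GAPC and GOS2 for RR5, and rf2 and tbp1 for RR9. On slides 7 to 12 they were ABP3 and LOC542109 for HK1, cpi2 and gte102 for RR4, ALDH10A5 and C4ppdkZm1 for hk2, and orc4 and bsd2 for hk3. On slides 13 to 18 they were CYTMDH and IDI2 for HK1, gst11 and PIP2-4 for RR10, rld2 and LOC542099 for RR4, sod2 and hsp70-5 for RR8, MNB1b and MYB1_2 for RR9, cycD2 and GAPC for an1, and hac106 and epc101 for hk2.

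Markers of the layers and of neighbouring tissue were read on the same slides. L1 and epidermis genes were called higher in L1 on 3 of 6, 3 of 5 and 2 of 4 probes of the 3 designs (from -0.15 to 2.65). Corpus and meristem genes were called lower in L1 on 3 of 6, 1 of 4 and 1 of 10 probes, all kn1. Epidermal genes and kn1 helped to set the direction, so their signs are given as a description. Over all probes 1.5%, 0.89% and 1.02% were called higher in L1, and 1.34%, 0.545% and 0.554% lower. Leaf primordium genes were called higher in L1 on 3 of 9, 2 of 7 and 3 of 14 probes (from -0.36 to 2.12), with yabby15 the highest. The list did not run one way: rs2 was at -0.36, -0.20 and -0.32 on the 3 designs, lower on 6, 4 and 5 of 6 slides and not called. The vascular list had values for sus1 and sh1 alone on slides 1 to 6 and 7 to 12, and also for sut1 on slides 13 to 18. These genes were called by limma on none of 14, 5 and 9 probes, none had an unadjusted p under 0.05, and they lay between -0.20 and 0.18. How well these genes mark vascular tissue was not tested. The part of leaf primordium cells in the differences of RR6, RR5, hk3 and an1 was not tested.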

How the data were processed

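The deposited values are the authors' log ratios between the channels of each slide, treated here as on the log2 scale; the sources used here name neither base, normalisation nor numerator dye. Each of 18 slides was deposited as 3 readings (L, M and H, meaning not given), which were averaged and turned by the dye orientation in the labels so that L1 is on top. Before turning, like-oriented slides correlated with a median r of 0.451, 0.269 and 0.271 on the 3 designs, opposite ones with 0.0265, -0.164 and -0.162. Of 9 opposite pairs per design, 3, 7 and 7 were below 0. The dye term passed at an adjusted p under 0.05 by limma for 415, 1 and 0 probes. limma 3.58.1 in R 4.3.3 fitted a layer and a dye term per probe and design (lmFit, eBayes, 4 residual degrees of freedom), with Benjamini-Hochberg adjustment over all probes of the design. The designs were normalised apart and fitted apart. For arrays, their number, 6 per design, limits the precision. The fit was tested on simulated data. Names came from the array annotation and RefSeq's NAM-5.0 table, which matched 9 of the 10 genes. The genes, lists and tests were chosen with earlier results of these data known. Named genes were all that the name rule found, every called pathway gene, and for each gene and design the 2 named probes nearest in root mean square difference to its probe of smallest p. Other list genes (hp2, HP1, cko2, cko3, yabby15, rs2, sus1, sh1, sut1) were named after their values were seen. Alternatives varied readings, dye term, centring, scaling, moderation, extract numbers, probe averaging and each slide. Figures were drawn with matplotlib 3.10.9.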

Additional observations from a re-analysis of the deposited data

Results flagged for a closer look

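Of the 23 probes, 3 had 1 slide far from the other 5 by Dixon's test, where chance flags about 1 in 20 groups. Probe 3383 of RR10 was at -0.20 on slide 18, with the others from -0.0015 to 0.088. Probe 4239 of hk2 was at 0.32 on the same slide, with the others from 0.0048 to 0.12. Probe 12404 of RR5 was at 0.073 on slide 17, with the others from -0.63 to -0.39. The call of RR5 on probe 1098, measured on the same slides, does not use that value.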

How the results depend on the processing

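Over the 23 probes, 333 of 384 alternative values kept their direction and their side of the threshold; all 4 called probes kept their sign, and 17 of the 19 uncalled ones were called in no alternative. The number of probes called on slides 1 to 6 (409) was 261 in the L reading, 258 without the dye term, 16 without eBayes moderation, 78 without slides 1 and 5, and 211 to 417 when 1 slide was left out. On slides 7 to 12 (129) it was 82 in the L reading, 76 in the H reading, 77 with slides scaled to one spread, 18 without moderation, and 38 to 65 with 1 slide left out. On slides 13 to 18 (224) it was 79 in the L reading, 44 without moderation, and 88 to 231 with 1 slide left out. With the L2 extract number as a random block (correlation -0.207), 577 probes were called on slides 1 to 6. Without moderation no probe of these genes was called: RR6 -1.27 (adjusted p = 0.0925), an1 -0.67 (0.0777), hk3 -0.43 (0.177), RR5 -0.51 (0.147). Without slides 1 and 5, an1 was at -0.64 (0.0766) and hk3 at -0.35 (0.554). hk3 was also lost in the H reading (-0.28) and without the dye term (-0.43, 0.0819), and ran from -0.48 to -0.38 with 1 slide left out. RR5 probe 1098 was lost in the L reading (-0.44) and ran from -0.58 to -0.45. RR4 probe 12952 passed with the L2 block (-0.34, 0.0344) and ran from -0.39 to -0.29. RR5 probe 12404 ran from -0.49 to -0.32. With probes averaged, the mean of RR5 probes 12404 and 1098 passed (-0.45), which is a value of the gene and not of probe 12404. The averaged values of RR5 probe 5267 and RR4 probe 18954, given next, are likewise gene means. Signs turned, all at an adjusted p of 0.48 or more, for RR5 probe 5267 (H reading -0.0036, scaled -0.010, L2 block -0.00052, probes averaged -0.16, 1 slide out -0.049 to 0.10), RR4 probe 18954 (averaged -0.082), hk2 probe 8155 (M reading -0.080, 1 slide out -0.041 to 0.12), RR10 (L reading 0.051, scaled 0.0062, 1 slide out -0.024 to 0.040), RR4 probe 5515 (L reading -0.018, 1 slide out -0.11 to 0.15), hk2 probe 7863 (L reading -0.0015, M reading -0.0021, 1 slide out -0.035 to 0.038) and hk2 probe 9128 (1 slide out -0.011 to 0.20). Fits with slides left out also have fewer slides, and the cause of these changes was not tested.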
